A study of Mus musculus with 4 samples.

Results

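T cell receptor signalling genes were examined in RNA of effector regulatory T cells that had been sorted from Peyer's patches, the lymphoid follicles of the mouse small intestine. The set held 35 genes of the receptor complex, its kinases, phosphatases and adaptors, and the factors at the end of the pathway. Members were taken by gene symbol from the table of raw counts. All 35 were found among its 24061 gene rows, and all 35 were among the 13022 genes tested, with a mean of at least 35.1 CPM (the counts-per-million scale, with TMM library sizes). The filter on low counts therefore removed no member. Together the members took 1.98% to 2.05% of the gene counts of a library.

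The cells were sorted as CD4+FoxP3+CD62L- from mice 13 weeks old, with a background of C57BL/6 at backcross generation 5. Every animal carried FoxP3-YFP-cre, which marks cells that express Foxp3 with a yellow fluorescent protein and gives them Cre recombinase. By title, 2 libraries were labelled Maf+/+ (wt 1 and wt 2) and 2 were labelled Mafflox/flox (flox 1 and flox 2), each from roughly 40000 cells. Nothing in the labels ties the libraries of a group to separate animals, so the spread behind every p-value is that between these samples and may be technical. Gene totals ran from 19368745 to 24687897 counts.

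Maf, the targeted gene, went against 2 of the labels. It had 149 CPM in the library labelled wt 1 and 122 in the library labelled flox 1, and 1.98 and 0.726 in the libraries labelled wt 2 and flox 2. High Maf thus went with the number 1 in the titles and low Maf with the number 2. The members were compared between the libraries numbered 1 (labelled wt 1 and flox 1) and those numbered 2 (labelled wt 2 and flox 2), and then between labels. No genotype was read from the number. The Maf level and anything else that libraries of 1 number share cannot be told apart. Foxp3 had 91.0 to 104 CPM in the 4 libraries.

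When a T cell receptor binds its antigen, the kinase Lck phosphorylates the CD3 and zeta chains, which then recruit the kinase Zap70. Zap70 phosphorylates the scaffold Lat, and the complex that forms there activates phospholipase C gamma. The resulting calcium signal releases NFAT factors into the nucleus, and diacylglycerol activates RAS through Rasgrp1 and the NF-kB route through protein kinase C theta, Bcl10 and Malt1. Some phosphatases, ubiquitin ligases and diacylglycerol kinases dampen steps of this pathway. Regulatory T cells need receptor signals to take on and keep the effector state.

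Promoter windows, from 250 bases before to 50 bases after the annotated start, were read from RefSeq (GRCm38.p6, the assembly of mm10) for 30 of the 35 members. No window was listed for Cd4, Cd6, Cd28, Malt1 and Nfatc1. The first listed windows of 3 members are shown: Zap70, which was higher in the libraries numbered 1, Cd247, which encodes the chain that Zap70 binds, and Cd5, the member with the smallest p among those lower there. Zap70 has 3 listed windows, and the one shown lies at chr1:36761548-36761847 (plus strand). That of Cd247 lies at chr1:165788431-165788730 (plus strand) and that of Cd5 at chr19:10738925-10739224 (minus strand). Capitals mark the letters TGCTGA, the core of the recognition element of Maf proteins, on either strand.
Zap70: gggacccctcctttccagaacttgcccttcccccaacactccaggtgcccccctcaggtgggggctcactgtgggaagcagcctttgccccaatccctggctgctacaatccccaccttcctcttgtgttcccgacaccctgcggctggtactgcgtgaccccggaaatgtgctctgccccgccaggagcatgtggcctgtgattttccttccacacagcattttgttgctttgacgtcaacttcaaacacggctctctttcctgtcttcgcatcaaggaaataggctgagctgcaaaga
Cd247: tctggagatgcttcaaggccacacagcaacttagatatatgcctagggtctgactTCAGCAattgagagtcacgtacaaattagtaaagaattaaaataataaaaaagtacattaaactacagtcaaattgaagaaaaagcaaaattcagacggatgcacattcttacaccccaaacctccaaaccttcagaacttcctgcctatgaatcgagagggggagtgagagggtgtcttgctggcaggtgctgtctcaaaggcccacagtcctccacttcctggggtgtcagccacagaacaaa
Cd5: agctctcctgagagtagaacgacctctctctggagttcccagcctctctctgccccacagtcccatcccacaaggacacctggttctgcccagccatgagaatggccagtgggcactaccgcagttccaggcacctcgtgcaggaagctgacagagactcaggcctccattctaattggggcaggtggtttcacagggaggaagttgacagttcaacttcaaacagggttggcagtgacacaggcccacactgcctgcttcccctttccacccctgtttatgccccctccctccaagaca

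The core TGCTGA was present on either strand in 5 of the 45 windows of members (11.1%), against 19.5% of all 32851 windows of this length. The AP-1 motif TGANTCA, whose first 3 letters can overlap the last 3 of the core, was in 0 of the 45 windows and in 7.81% of all windows. In the 3 windows printed above, Cd247 held 1 core match, and Zap70 and Cd5 held none of either motif. These counts describe the letters in the windows only.

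Levels of different genes were compared per length, as CPM per kilobase of exon (RPKM, from all exons that GENCODE M21 lists for a gene). Lck, the kinase that starts the cascade, stood highest with 611 and 593 RPKM in the libraries labelled wt 1 and flox 1 and 521 and 560 in those labelled wt 2 and flox 2. Cd3e, the epsilon chain of the receptor complex, followed with a mean of 314, and Fyn, the other SRC family kinase of T cells, with 255. At the low end stood Txk, a TEC family kinase (mean 4.96), Grap2, the adaptor between Lat and Lcp2 (5.63), and Themis, a regulator of receptor signal strength known from thymocytes (6.62). Levels per length thus differed far more between genes than between libraries. The ratio of the highest to the lowest library lay between 1.08 for Cd4 and 1.60 for Zap70 in 34 members, and was 2.35 for Malt1.

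**Figure D1:**
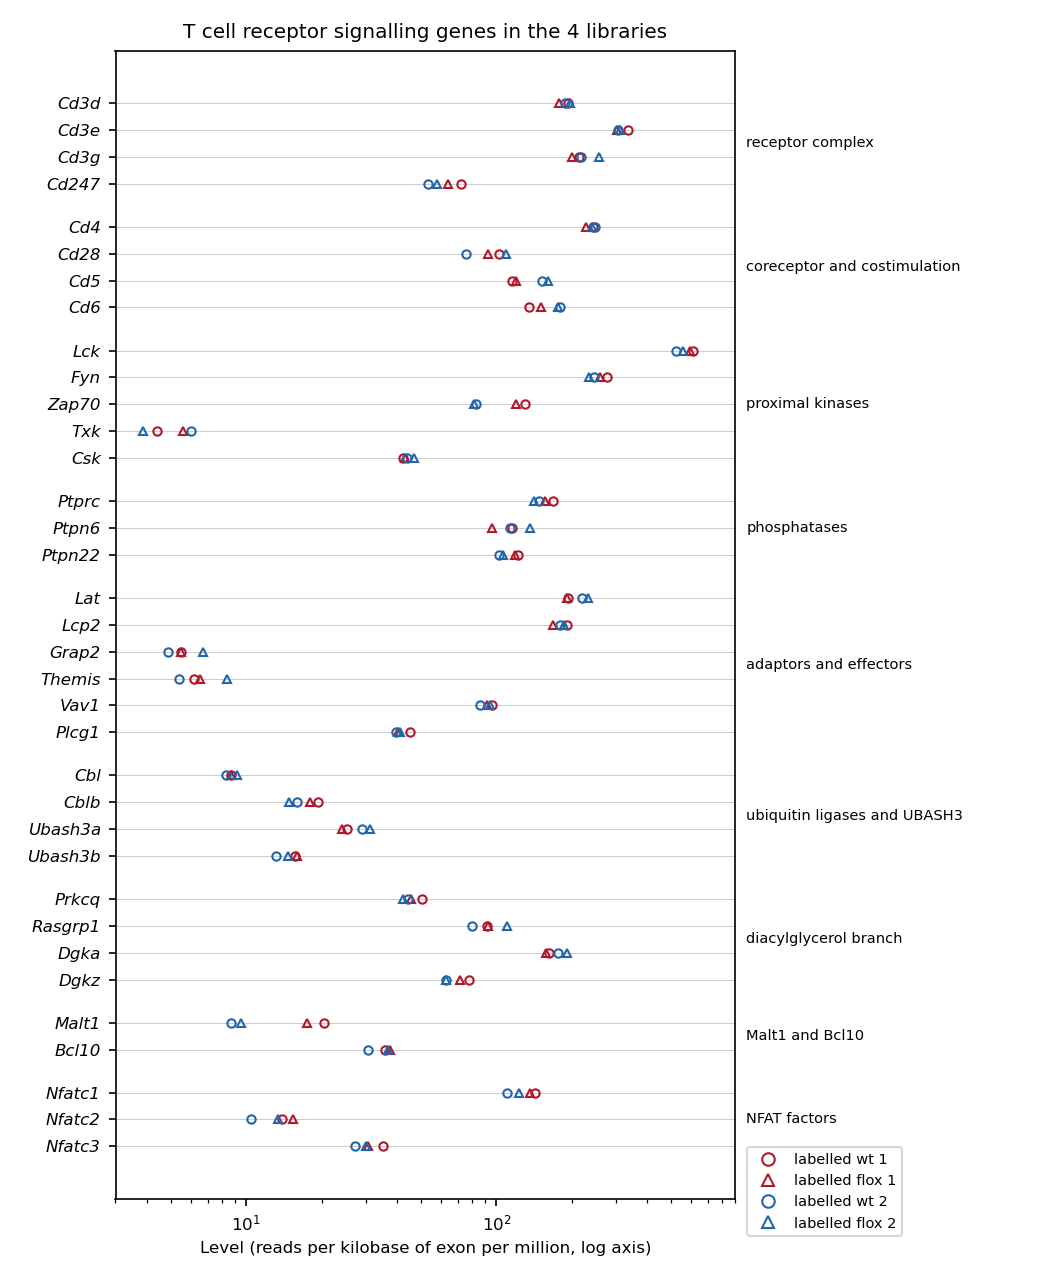
Level of each of the 35 genes in the 4 libraries, in RPKM on a log axis, grouped by role; red marks libraries numbered 1, blue those numbered 2, circles labelled wt and triangles labelled flox. Lck is highest at 521 to 611, and the red and blue symbols stand clearly apart for Malt1 and Zap70.

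Between the libraries numbered 1 and 2, 2 of the 35 members rose in those numbered 1 and 0 fell by edgeR's quasi-likelihood test with Benjamini-Hochberg adjustment over all genes (adjusted p under 0.05). The members called were Malt1 and Zap70, 5.71% of the set, where 1.41% of all genes tested were called higher and 0.399% lower. At an unadjusted p under 0.05 there were 7 members higher (20.0%) and 5 lower (14.3%), against 8.12% and 5.45% of all genes. Without multiplicity adjustment, and with members chosen when earlier results of these data were known, these shares are a description. The members are also more deeply covered than the average gene, with a median of 343 CPM against 27.1. Counts at such a p in the role groups below have the same 8.12% and 5.45% of all genes beside them. DESeq2 called 4 members, Malt1 and Zap70 as higher and Cd5 and Cd6 as lower. The edgeR likelihood ratio test and limma-voom called Malt1 and Zap70.

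Levels of the 2 pairs of libraries did not overlap for 21 members, 14 of them higher in the libraries numbered 1 (40.0%, against 22.5% of all genes) and 7 lower (20.0%, against 22.7%). That split depended on scaling: with raw library totals it was 12 higher and 11 lower. The median log2 change of the members was 0.06, beside -0.01 over all genes, and the median absolute change was 0.17, beside 0.18. For 34 of the 35 members the 95% interval of the change lay within a fold of 2 in either direction, and for 29 within a fold of 1.5. The member outside both bounds was Malt1, and those within the wider bound alone were Cd5, Zap70, Txk, Themis and Nfatc2.

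**Figure D2:**
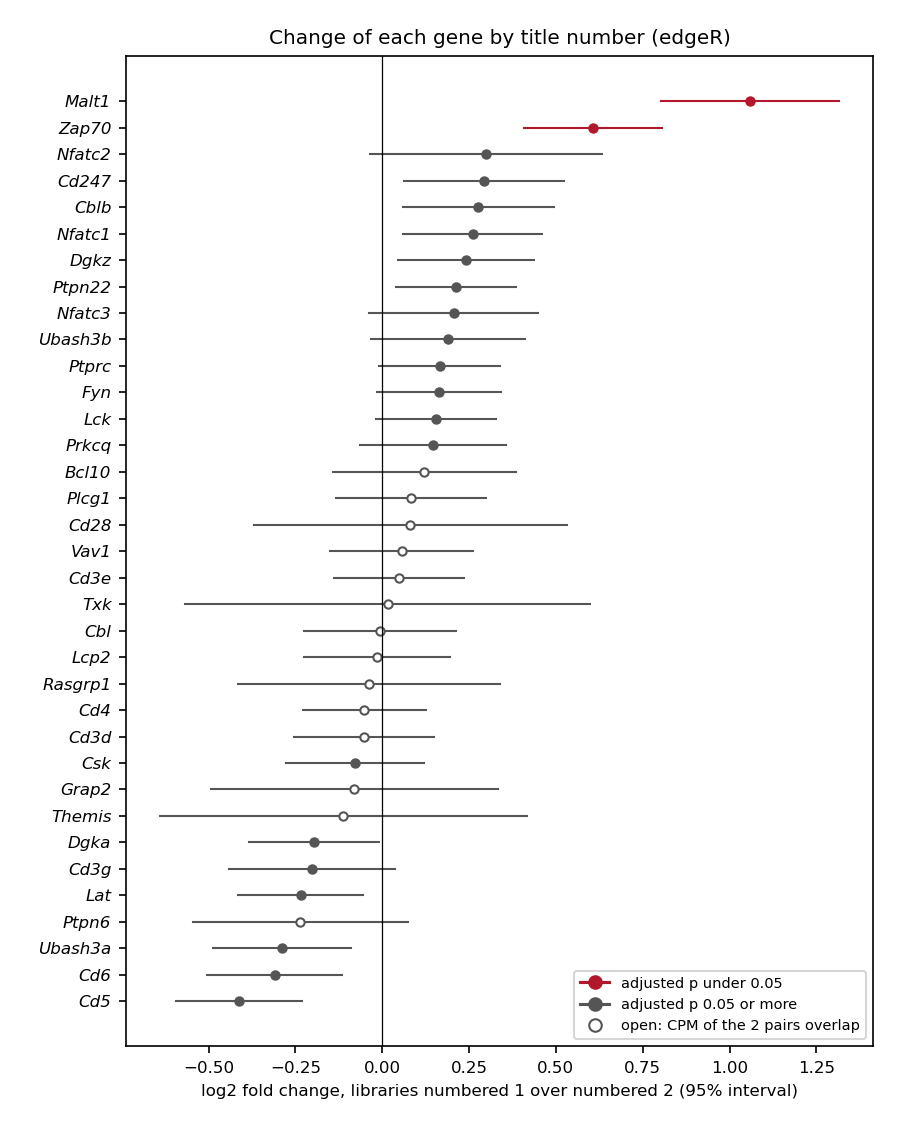
Log2 fold change of each gene, libraries numbered 1 over numbered 2, with its 95% interval from the edgeR fit; red marks an adjusted p under 0.05, and filled points have pairs of libraries that do not overlap. Malt1 (1.06) and Zap70 (0.61) stand to the right of the rest, and Cd5 (-0.41) and Cd6 (-0.31) furthest to the left.

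Malt1, a paracaspase that works with Bcl10 and leads to NF-kB, showed the largest difference. It had 369 and 315 CPM in the libraries labelled wt 1 and flox 1, and 157 and 171 in those labelled wt 2 and flox 2. Both values of the libraries numbered 1 lay well above both of the others. The log2 fold change was 1.06 (SE 0.11, 95% interval 0.80 to 1.31, adjusted p = 0.00874 by edgeR's quasi-likelihood test), a level 2.08 times as high, and Malt1 stood 56th among the 13022 genes in order of p. The ratio of number 1 over number 2 was 2.35 within labelled wt (2.25 to 2.45, exact interval for counting error only) and 1.84 within labelled flox (1.77 to 1.92). In bulk RNA, fewer cells expressing a gene and less RNA per cell cannot be told apart. Malt1 lies on chromosome 18 at 65430938 to 65479067, plus strand (GENCODE M21, mm10 coordinates). Its partner Bcl10 had 164 and 171 CPM against 140 and 168, a change of 0.12 (SE 0.11) that did not pass.

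Zap70, the kinase recruited to phosphorylated receptor chains, was the other member called. The libraries labelled wt 1 and flox 1 had 390 and 359 CPM, and those labelled wt 2 and flox 2 had 247 and 244. Within each pair the values were close, and the pairs were far apart. The log2 fold change was 0.61 (SE 0.08, interval 0.41 to 0.81, adjusted p = 0.0251 by edgeR's quasi-likelihood test), with ratios of 1.57 within labelled wt (1.52 to 1.63) and 1.47 within labelled flox (1.42 to 1.52). Zap70 lies on chromosome 1 at 36761798 to 36782818, plus strand. Relative to Lck per length, its level was 0.213 and 0.202 in the libraries numbered 1 and 0.159 and 0.146 in those numbered 2, a ratio that does not depend on library scaling.

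Both calls rested in part on single libraries. Without the library labelled wt 1, 0 members and 46 genes in all passed edgeR's quasi-likelihood test, with Malt1 at a log2 change of 0.94 (adjusted p = 0.063) and Zap70 at 0.54 (adjusted p = 0.222). When the library labelled flox 1 was left out, Malt1 was still called and Zap70 was not (0.67, adjusted p = 0.0869), with 116 genes called in all. Each of these fits leaves 1 library in an arm, whose spread is taken to be that of the other pair. Neither gene passed a test against a minimum fold of 1.5, by which 60 genes passed.

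**Figure D3:**
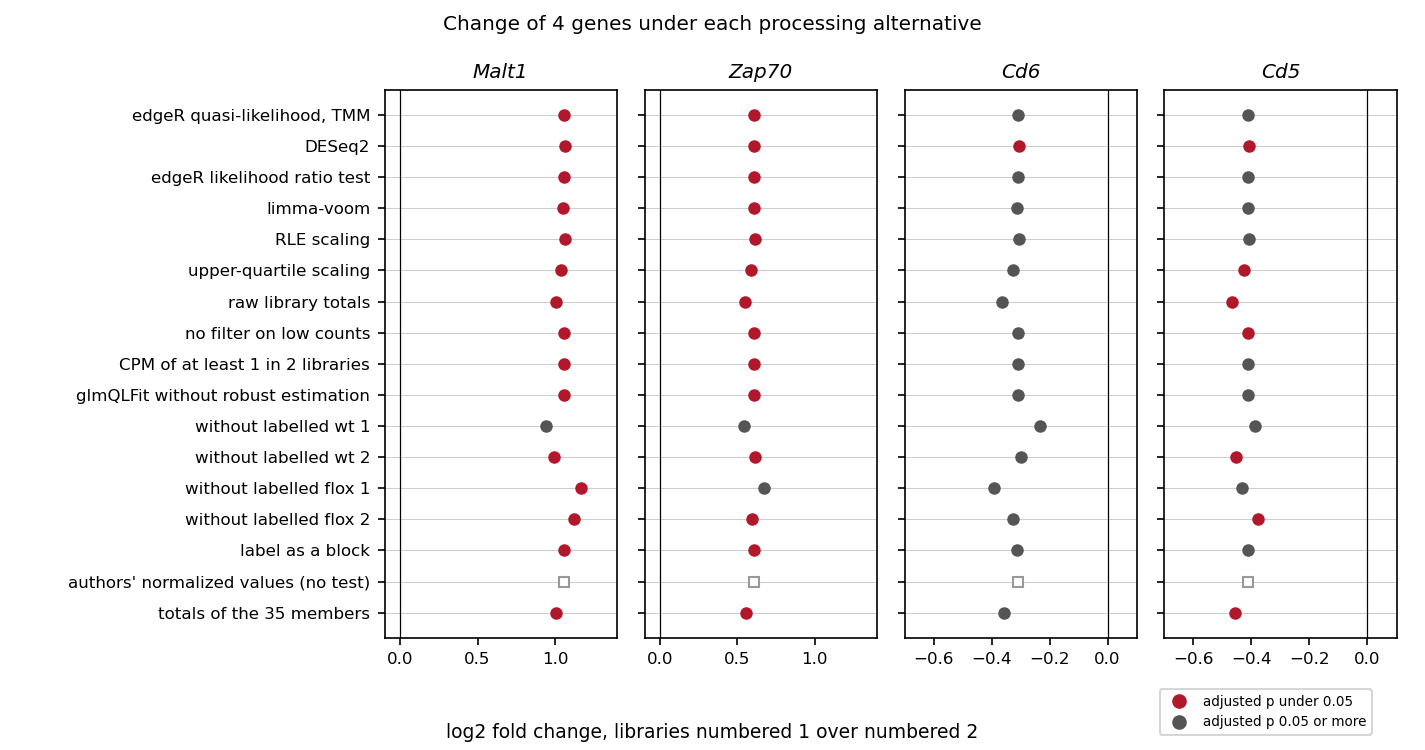
Log2 fold change of Malt1, Zap70, Cd6 and Cd5, libraries numbered 1 over numbered 2, under each processing alternative (rows); red marks an adjusted p under 0.05 and open squares have no test. Estimates kept their sign in every row shown, Malt1 between 0.94 and 1.17 and Zap70 between 0.54 and 0.67, while Cd6 passed in 1 row, Cd5 in 7 and Zap70 in all tested rows but 2.

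Among the other proximal kinases, Lck and Fyn were slightly higher in the libraries numbered 1 without passing. Lck had 1789 and 1736 CPM there and 1526 and 1639 in those numbered 2 (log2 fold change 0.15, interval -0.02 to 0.33), and Fyn had 1213 and 1134 against 1070 and 1025 (0.16, -0.02 to 0.34). Csk, the kinase that holds Lck and Fyn inactive, had 159 and 161 against 164 and 175 CPM. Txk, by contrast, moved in opposite directions within the labels: it had 48.2 CPM in the library labelled wt 1 and 65.7 in wt 2, but 61.1 in flox 1 and 42.5 in flox 2.

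In the receptor complex, none of the 4 chains passed edgeR's test, 1 had an unadjusted p under 0.05, and DESeq2, the likelihood ratio test and limma-voom called none either. Cd247, the zeta chain with most of the signalling motifs, had the smallest p. It had 385 and 340 CPM in the libraries numbered 1 and 284 and 308 in those numbered 2, so the pairs did not overlap (log2 fold change 0.29, SE 0.10, adjusted p = 0.25 by edgeR). Its exons share 3007 of their 5329 bases with those of Pou2f1 on the opposite strand in GENCODE, and the use of strand in counting is not given in the sources used here, so its level is uncertain.

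Cd3d, Cd3e and Cd3g, whose genes lie side by side on chromosome 9, encode the delta, epsilon and gamma chains. Cd3d had 351 and 323 against 342 and 357 CPM, and Cd3e had 1370 and 1239 against 1250 and 1273. Cd3g had 700 and 657 against 716 and 843, lower in both libraries numbered 1 (-0.20, interval -0.44 to 0.04). Per length, Cd3d stood at 0.576 to 0.631 of Cd3e across the libraries, Cd3g at 0.637 to 0.827 and Cd247 at 0.174 to 0.215. The highest Cd3g share was in the library labelled flox 2.

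Among coreceptors, Cd4, which the sort selected for, had the most even level of all members, with 983 and 920 CPM in the libraries numbered 1 and 998 and 974 in those numbered 2. Its change was -0.05 with an interval of -0.23 to 0.13. Cd28, the main costimulatory receptor, had 625 and 568 against 463 and 665 CPM, with the library labelled wt 2 lowest and flox 2 highest.

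Cd5 and Cd6, scavenger receptors that bind the receptor's signalling machinery, were lower in the libraries numbered 1. Cd5, a negative regulator whose surface level is known to follow receptor signal strength, had 570 and 590 CPM in the libraries labelled wt 1 and flox 1 and 751 and 792 in those labelled wt 2 and flox 2. The pairs did not overlap. The log2 fold change was -0.41 (SE 0.08, interval -0.59 to -0.23), which narrowly missed the threshold by edgeR's quasi-likelihood test (adjusted p = 0.0613) and passed it by DESeq2 (adjusted p = 0.000546), without a filter on low counts (0.0074), and with raw totals or upper-quartile scaling (0.028 and 0.0448). By edgeR it also passed without the library labelled wt 2 (-0.45, adjusted p = 0.0225) or flox 2 (-0.38, 0.0464), and not without wt 1 (-0.39, 0.454) or flox 1 (-0.43, 0.308). Cd6 had 1075 and 1203 CPM against 1426 and 1399, a change of -0.31 (SE 0.08, adjusted p = 0.154 by edgeR and 0.0443 by DESeq2). The 2 genes are on chromosome 19, with 50338 bases between them.

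Of the phosphatases, none passed by edgeR, DESeq2, the likelihood ratio test or limma-voom, and 1 had an unadjusted p under 0.05. Ptpn22, which removes activating phosphates from Lck and Zap70, had 829 and 804 CPM in the libraries numbered 1 and 692 and 717 in those numbered 2 (log2 fold change 0.21, SE 0.07, adjusted p = 0.266 by edgeR). The pairs were separate. Ptprc, which encodes CD45, had 3099 and 2852 against 2714 and 2591 CPM (0.17, interval -0.01 to 0.34). Ptpn6, which encodes the inhibitory phosphatase SHP-1, had 323 and 270 against 318 and 381 CPM, with the libraries labelled flox 1 lowest and flox 2 highest and the pairs overlapping.

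The adaptors and effectors around Lat differed little, and 0 of 6 passed by any of the 4 tools, with 1 at an unadjusted p under 0.05. Lat, the membrane scaffold, had 536 and 530 CPM in the libraries numbered 1 and 610 and 643 in those numbered 2. It was lower in both libraries numbered 1 (log2 fold change -0.23, SE 0.07, adjusted p = 0.235 by edgeR). The other 5 members overlapped between the pairs. Lcp2, which encodes the adaptor SLP-76, had 855 and 756 against 797 and 830 CPM, Vav1, a guanine nucleotide exchange factor, had 354 and 339 against 318 and 349, and Plcg1, the phospholipase, had 356 and 318 against 312 and 324. Intervals of these 3 lay between -0.22 and 0.30. Themis (72.2 and 76.3 against 62.7 and 97.8 CPM) and Grap2 (34.2 and 34.1 against 30.5 and 41.7) were highest in the library labelled flox 2.

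Pairs of related inhibitors, set side by side after their values were seen, moved unequally. Of 10 members known mainly as inhibitors (Csk, Ptpn6, Ptpn22, Cbl, Cblb, Ubash3a, Ubash3b, Dgka, Dgkz and Cd5), 4 were higher in both libraries numbered 1, 4 were lower in both, and 2 overlapped, where 22.5% of all genes were higher in both and 22.7% lower; with raw library totals the last 2, Ptpn6 and Cbl, were lower in both as well. None passed edgeR's test over all genes. Ubash3a, which restrains receptor signals, had 283 and 272 CPM in the libraries numbered 1 and 326 and 352 in those numbered 2 (log2 fold change -0.29, SE 0.08, adjusted p = 0.191), and its relative Ubash3b, a phosphatase that acts on Zap70, had 115 and 117 against 96.6 and 107 (0.19, SE 0.09). Per length, Ubash3a stood at 1.60 and 1.52 times Ubash3b in the libraries labelled wt 1 and flox 1, and at 2.20 and 2.13 times in wt 2 and flox 2.

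The diacylglycerol kinases, which remove the lipid that recruits Rasgrp1 and protein kinase C theta, did likewise. Dgka had 774 and 751 CPM in the libraries numbered 1 and 836 and 911 in those numbered 2. Dgkz had 487 and 447 against 395 and 396 (0.24, SE 0.08, adjusted p = 0.261 by edgeR). Dgka thus stood at 2.09 and 2.21 times Dgkz per length in the libraries numbered 1 and at 2.79 and 3.03 times in those numbered 2. Cblb, a ubiquitin ligase that sets the threshold for costimulation, had 204 and 188 against 168 and 155 CPM (0.28, interval 0.06 to 0.49), while Cbl had 108 and 107 against 102 and 113. These ratios within a library do not depend on scaling and were not tested.

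The activators of the diacylglycerol branch overlapped or differed little. Rasgrp1, which loads RAS, had 514 and 521 CPM in the libraries numbered 1 and 446 and 616 in those numbered 2. Prkcq, which encodes protein kinase C theta, had 356 and 322 against 313 and 300 (0.15, interval -0.06 to 0.36). Prkcq was slightly higher in both libraries numbered 1, but overlapped with raw library totals, and Rasgrp1 was highest in the library labelled flox 2.

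Levels of all 3 NFAT genes were higher in both libraries numbered 1, as were those of 22.5% of all genes. Nfatc2 overlapped when scaled by the members' own totals. None of the 3 passed by edgeR, DESeq2, the likelihood ratio test or limma-voom, and 1 had an unadjusted p under 0.05. Nfatc1, the calcium-dependent factor most abundant among them, had 1068 and 1018 CPM in the libraries numbered 1 and 825 and 917 in those numbered 2 (log2 fold change 0.26, SE 0.08, adjusted p = 0.235 by edgeR). Nfatc2 had 147 and 163 against 110 and 142 CPM (0.30, SE 0.14), and Nfatc3 had 414 and 359 against 320 and 351 (0.21, SE 0.10). Of the 4 libraries, that labelled wt 2 held the lowest level of each NFAT gene.

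**Figure D4:**
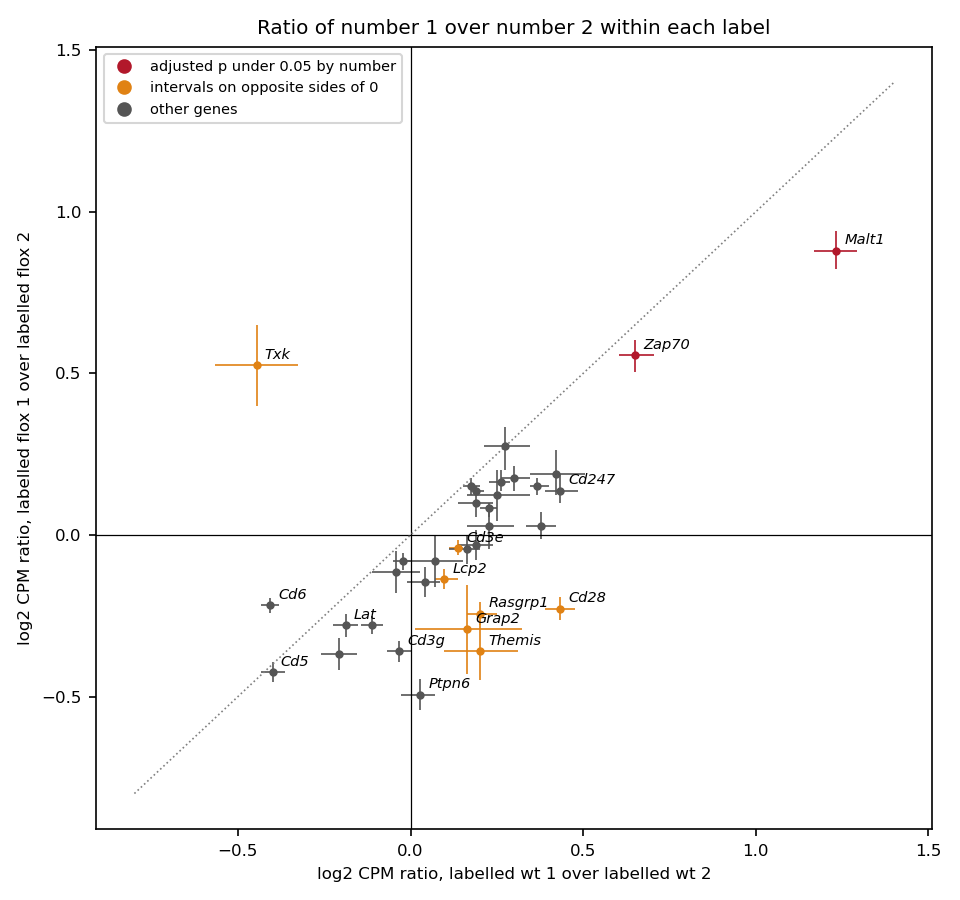
Log2 CPM ratio of number 1 over number 2 within labelled wt (horizontal) and within labelled flox (vertical) for the 35 genes, with exact 95% intervals for counting error; the dotted line marks equal ratios. Malt1 and Zap70 lie apart at the upper right, Cd5 and Cd6 at the lower left, and 7 genes in orange have intervals on opposite sides of 0 in the 2 labels.

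Of 97 further genes of the pathway in 6 lists, 2 rose in the libraries numbered 1 and 0 fell by edgeR's quasi-likelihood test. Both shares were close to the 1.41% and 0.399% of all genes. At an unadjusted p under 0.05 there were 18 higher and 11 lower, larger shares than the 8.12% and 5.45% of all genes. DESeq2 called 6 of the 97 and 640 of all 13022 genes, the likelihood ratio test 5 and 608, and limma-voom 2 and 201. The median log2 change of the 97 was 0.04. These lists were chosen with earlier results of these data known, so their shares are a description. Sla, which encodes an adaptor that promotes the loss of receptor from the cell surface, was called in the list of 30 proximal genes. It had 1266 and 1079 CPM in the libraries labelled wt 1 and flox 1 and 692 and 741 in those labelled wt 2 and flox 2 (log2 fold change 0.71, SE 0.10, adjusted p = 0.0256 by edgeR). It was not called without the library labelled wt 1 (0.59, adjusted p = 0.192), where 0 of the 97 were, and was the 1 call without that labelled flox 1 (0.82, adjusted p = 0.0425). Leaving out the library labelled wt 2, or flox 2, gave 7 calls among the 97.

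In 4 of these lists edgeR called no gene, and the pair with the smallest p in each is given. Of 18 calcium and calcineurin genes, 2 were higher and 3 lower at an unadjusted p under 0.05, where 8.12% and 5.45% of all genes were. The smallest p values were those of the potassium channel gene Kcna3 (250 and 247 against 197 and 175 CPM) and the calcium release channel gene Itpr1 (56.7 and 53.3 against 68.4 and 78.5). DESeq2 called 1 of this list and limma-voom 0. Of 13 genes of NF-kB activation, DESeq2 also called 0. Nfkbia, the NF-kB inhibitor, had 1121 and 1230 against 833 and 1008 CPM, and Ikbkb, a kinase that triggers its decay, had 250 and 221 against 281 and 292.

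Of 12 PI3K and AKT genes, DESeq2 called 1, and Foxo1, a transcription factor that AKT holds out of the nucleus, had 691 and 688 against 558 and 543 CPM. Pik3r1, the regulatory subunit of PI3K, had 171 and 149 against 186 and 223. Of 7 ubiquitin ligase genes tied to T cell anergy, DESeq2 called 1. Dtx1 had 655 and 624 against 808 and 974 CPM (log2 fold change -0.48, SE 0.10, adjusted p = 0.0975 by edgeR). Nedd4, at a low level, had 11.3 and 10.5 against 7.61 and 4.55 (0.84, SE 0.31, adjusted p = 0.306).

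Among 28 genes that receptor signals are known to induce, 4 rose in the libraries numbered 1 and 0 fell by edgeR, with 14 higher and 1 lower at an unadjusted p under 0.05. Over all genes, 1.41% were called higher and 0.399% lower, and 8.12% and 5.45% had such an unadjusted p. The 1 gene lower at such a p was Il2ra (-0.24, adjusted p = 0.303 by edgeR). The list's median log2 change was 0.32, beside -0.01 for all genes. This list was chosen with earlier results of these data known, so its shares and median are a description. Fosb, Fos and Junb, kept in a separate list of genes that cell handling can raise, were also higher in both libraries numbered 1. The part of handling in the changes of the 28 genes was not tested. Nr4a1, an orphan nuclear receptor used as a reporter of receptor signals, had 3934 and 3782 CPM in the libraries labelled wt 1 and flox 1 and 1784 and 1828 in those labelled wt 2 and flox 2 (log2 fold change 1.10, SE 0.06, adjusted p = 0.00158). The groups were far apart, with little spread within each. Nfkbid, a nuclear NF-kB cofactor, had 942 and 1048 against 467 and 559 CPM (adjusted p = 0.0143), Egr2 had 419 and 420 against 223 and 257 (0.0149), and Ctla4, the inhibitory receptor, had 3342 and 3344 against 1627 and 2080 (0.027). Without the library labelled wt 1, or without that labelled flox 1, Nr4a1 alone was called (adjusted p = 0.0323 and 0.0114 by edgeR), with Nfkbid at 0.0694 and 0.0549, Egr2 at 0.111 and 0.0645 and Ctla4 at 0.178 and 0.106. Leaving out the library labelled wt 2 gave 10 calls and leaving out flox 2 gave 14. DESeq2 called 12 of the 28, the likelihood ratio test 11 and limma-voom 4.

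By label, 0 of the 35 members passed edgeR's quasi-likelihood test, against 0.00768% of all genes, and 0 had an unadjusted p under 0.05, against 1.98%. DESeq2, the likelihood ratio test and limma-voom also called none. Changes of labelled flox over labelled wt ran from -0.14 to 0.37, with Themis highest (0.37, SE 0.16), and those of Malt1 and Zap70 were -0.11 (SE 0.53) and -0.08 (SE 0.29). Levels did not overlap between labels for 4 members (11.4%, against 27% of all genes): Themis, Rasgrp1 and Bcl10 were higher in both libraries labelled flox, and Cd4 was lower. For Malt1 and Zap70 the spread within a label thus exceeded the difference between labels. This follows from their choice by title number, since each label holds 1 library of each number. Each label therefore also holds 1 library with high and 1 with low Maf, so the comparison by label does not set high against low Maf.

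Markers of regulatory T cells (6 genes, Ctla4 and Foxp3 among them) summed to 4690 and 4720 CPM in the libraries numbered 1 and to 2990 and 3570 in those numbered 2. That gap came from Ctla4: the other 5 summed to 1376 and 1347 against 1361 and 1490, and of these Foxp3 (-0.16, adjusted p = 0.472 by edgeR) and Il2ra (-0.24, adjusted p = 0.303) had negative log2 changes. Markers of other cells were present at lower levels. Summed markers of B and plasma cells (12 genes) ran from 284 to 354 CPM in the libraries numbered 1 and from 280 to 287 in those numbered 2, and markers of gut epithelium (12 genes) from 203 to 476 and from 350 to 485. Most of the B and plasma cell sum was Xbp1, with 220 and 234 against 198 and 229 CPM. CD8 T and natural killer markers (8 genes) summed to 56.9 and 64.2 in the libraries numbered 1 and to 88 and 102 in those numbered 2, and Klrb1c, a natural killer receptor, was lower in the libraries numbered 1 (22.6 and 21.3 against 44.9 and 68.5 CPM, adjusted p = 0.0368 by edgeR), while limma-voom called none of this list. Without Klrb1c, the other 6 tested markers of the list summed to 34.3 and 42.8 against 43.0 and 33.8 CPM, with no separation of the pairs. These sums without 1 gene were added after seeing the data. Myeloid markers (10 genes) summed to 10.9 and 97.3 against 60.4 and 56.1, and stromal and endothelial markers (6 genes) to 75.5 and 79.9 against 85.0 and 64.9. Nearly all of the stromal and endothelial sum was Pecam1, with 74.3 and 77.4 against 82.7 and 63.9 CPM. Of those 6 genes 2 passed the filter on low counts, and Col1a1, the other, had 0.919 to 1.60 CPM. No marker was at 0 in all 4 libraries, while Ncr1, Csf1r, Adgre1 (listed under its older symbol), Cd14, Col3a1, Pdgfra and Cdh5 were at 0 in at least 1.

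Genes that cell handling can raise (15 heat shock and immediate early genes) summed to 16000 and 16100 CPM in the libraries labelled wt 1 and flox 1. In those labelled wt 2 and flox 2 they summed to 11800 and 21500. By edgeR none was called, and DESeq2 called 2. At an unadjusted p under 0.05 there were 3 higher (Fosb, Fos and Junb) and 0 lower, where 8.12% and 5.45% of all genes were. The heat shock genes of the list all had negative log2 changes, and each was highest in the library labelled flox 2. Hspa1a, Hspa1b, Dnajb1 and Hspe1 were lower in both libraries numbered 1, as were 22.7% of all genes, so the sums hold opposite changes. The other heat shock genes overlapped between the pairs. Hsph1 and Hspa8 were lowest in the library labelled wt 2 (98 and 1878 CPM) and had 691 and 4359 in that labelled flox 2. Fos had 1501 and 1493 CPM in the libraries numbered 1 and 652 and 954 in those numbered 2 (log2 fold change 0.90, SE 0.19, adjusted p = 0.123 by edgeR), while Hspa1a, a heat shock gene, had 35.5, 80.9, 103 and 892 CPM in the libraries labelled wt 1, flox 1, wt 2 and flox 2. The part of these genes and of the markers in the differences of Malt1, Zap70 and the receptor response genes was not tested.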

How the data were processed

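Per the labels' protocols, RNA from each sort went into a kit for ultra-low input mRNA sequencing. The submitters' processing notes name TopHat2 (2.1.1), build mm10, HTSeq (0.6.1) and edgeR (3.14); no source used here gives the annotation, the strand setting or other options. What the authors deposited were raw counts per gene symbol. Library sizes and tests do not include the 5 counter summary rows, which hold 66.6% to 67.2% of each column. The authors also deposited a table of normalized values, a signal for 10618 genes; all of its 42472 values matched, to a relative tolerance of 1e-06, edgeR pseudo-counts computed with the libraries grouped by title number, against 3.25% when grouped by label and 3.4% under the remaining grouping. It served as an alternative only.

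Counts were filtered with filterByExpr, scaled by TMM and tested in R 4.3.3 with edgeR 4.0.16 (glmQLFit robust, glmQLFTest), adjusted by Benjamini-Hochberg over all 13022 genes; the code was tested on simulated data. Standard errors were taken from the log2 fold change and its F statistic. Samples were grouped by title; a separate replicate field, which gives the same number to both libraries of a label, was not used. With 2 libraries against 2, an exact permutation test cannot go below 0.333, so none was run. Coordinates and exon lengths are from GENCODE M21; exons of 11 members overlap those of other genes. DESeq2 1.42.0, limma 3.58.1, other scalings and filters, a block and leaving out libraries were alternatives. Members given in full were the called ones and, in role groups without a call, the one with the smallest p; from other lists, called genes (at most 4) or the pair with the smallest p. The genes named from the handling list, and Pecam1, Col1a1 and Xbp1, were chosen after their values were seen. Members and lists were chosen with earlier results of these data known. Results for some genes of the other lists are not reported here.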

Additional observations from a re-analysis of the deposited data

Results flagged for a closer look

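For 7 members the ratio of the library numbered 1 over that numbered 2 lay on opposite sides of 1 within the 2 labels, with exact 95% intervals for counting error that exclude 1. With 1 pair of libraries per label the difference was not tested. The ratios within labelled wt and within labelled flox were 0.734 and 1.44 for Txk, 1.35 and 0.854 for Cd28, 1.15 and 0.78 for Themis, 1.15 and 0.845 for Rasgrp1, 1.12 and 0.817 for Grap2, 1.07 and 0.91 for Lcp2, and 1.10 and 0.973 for Cd3e. Txk alone was higher in the library labelled flox 1 than in flox 2. For the other 6 the ratio was above 1 within labelled wt and below 1 within labelled flox.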

How the results depend on the processing

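By title number, 531 of 560 recomputed changes of members kept their direction and, where tested, their side of the threshold, and 18 changed sign. Those from the authors' normalized values had no test and were judged by sign alone. None of the 18 that changed sign was called. By label, 448 of 490 did so and 42 changed sign. DESeq2 called 640 genes by title number, the likelihood ratio test 608 and the fit without a filter 589, against 236; leaving out 1 library gave 46 (without labelled wt 1) to 525 (without labelled wt 2). DESeq2 called 4 members and the test against a minimum fold of 1.5 called 0; leaving out 1 library gave 0 to 3. By label, DESeq2 and the likelihood ratio test called 12 genes each, limma-voom 0 and the fit without a filter 2, against 1; without any 1 library 0 were called. The cause was not tested. Of the 97 pathway genes, 6 were called by DESeq2, 5 by the likelihood ratio test, 5 without a filter and 3 with raw library totals, against 2, and 0 to 7 without 1 library. Of the 28 response genes, 12 were called by DESeq2, 11 by the likelihood ratio test and 9 without a filter, against 4, and 1 to 14 without 1 library. The alternatives for these lists were added after seeing the data. In the fit with the replicate block, 1 gene and 0 members were called by label, and with the label as the block 212 genes and 2 members by title number. Nothing in the labels pairs the libraries by number. Deviations of same-numbered libraries from their label means correlated at 0.264 across 13022 genes, and those of libraries labelled wt from their number means at -0.053. With 2 libraries per label, the first value reflects how alike the change by title number is in the 2 labels. It therefore cannot show whether libraries are paired.

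Cd3e turned to -0.008 and Txk to -0.045 with raw library totals, and to -0.001 and -0.034 with the members' own totals, a scaling added after seeing the data. Leaving out 1 library gave log2 changes by title number of -0.01 to 0.258 for Bcl10, -0.081 to 0.064 for Cbl, -0.161 to 0.364 for Cd28, -0.117 to 0.009 for Cd3d, -0.029 to 0.122 for Cd3e, -0.294 to 0.163 for Grap2, -0.109 to 0.075 for Lcp2, -0.004 to 0.166 for Plcg1, -0.257 to 0.212 for Rasgrp1, -0.401 to 0.242 for Themis, -0.266 to 0.36 for Txk and -0.016 to 0.124 for Vav1. By label these were -0.617 to 0.631 for Malt1, -0.383 to 0.284 for Zap70, -0.161 to 0.284 for Cd5, -0.132 to 0.281 for Cd6 and -0.42 to 0.109 for Txk. With totals that leave out heat shock, immediate early and mitochondrial genes, or with the members' own totals, both added after seeing the data, 12 members were separate and higher and 11 separate and lower. With 2 libraries a group, the spread rests on few samples, while counting error was small at the depth of these genes.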
